A study of Mus musculus with 9 samples.

Results

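The MHC class I antigen presentation genes are described here as a set of 10 members: the heavy chains H2-K1 and H2-D1, the light chain B2m, the peptide transporter genes Tap1 and Tap2, the loading factors Tapbp and Tapbpl, the peptide trimmer Erap1 and the interferon-inducible proteasome subunits Psmb8 and Psmb9. They were chosen by name as textbook components of the pathway, and all 10 were matched by symbol to 1 identifier each among the 54838 genes of the count table. Of these, 6 (H2-K1, H2-D1, B2m, Tapbp, Tapbpl and Erap1) had enough counts to be tested, and 4 (Tap1, Tap2, Psmb8 and Psmb9) did not.

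RNA was sequenced from 9 untreated cultures of PDA530 Met, a mouse pancreatic ductal adenocarcinoma line that grew out of a metastasis to the liver. The donor was a male KPC mouse, a genetic model of this cancer, on a mixed 129/SvJae/C57Bl/6 background. The knockout group is 3 libraries of clone E4, edited in Zdhhc20 with CRISPR/Cas9. The control group is 3 libraries of clone C5, which was nucleofected with the same guide RNAs as the knockout clone, stayed unedited and expresses Zdhhc20. The parental group is 3 libraries of the line before cloning, which the design text calls PDA50 Met. Each clone is 1 single-cell clone, so a difference between groups is a difference between clones or between a clone and its line, and the effect of the edit cannot be told apart from that of cloning. The replicates of a group are cultures of the same cells, and p-values measure the spread between these libraries.

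Class I molecules display peptides from inside the cell to CD8 T cells. Proteasomes cut proteins into peptides, the TAP transporter (Tap1 and Tap2) moves these into the endoplasmic reticulum, Erap1 trims them, and tapasin (Tapbp) with its relative TAPBPR (Tapbpl) helps them onto a heavy chain paired with beta-2 microglobulin (B2m) before the complex travels to the cell surface. Most of these genes are known to be induced by interferon gamma. The heavy chain and B2m promoters are also known targets of the transactivator NLRC5 and of NF-kappaB.

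The regulatory sequences upstream of H2-K1, H2-D1 and B2m are shown because these genes are described together as a co-regulated group while their counts moved differently across the clones. The sequences are those of RefSeq on GRCm38.p6, in which 8 of the 10 members have an entry. Below are the bases just before the outer of 2 H2-K1 starts (chr17:34000348-34000597, minus strand, 250 bases) and before the B2m start (chr2:122147437-122147685, plus strand, 249 bases), both clear of annotated member exons. Capitals mark GAAA NN GAAA (an interferon-stimulated response element core, where N is any base), GGGA NNNN CC (a kappaB core), TGACG (part of an X2 box) and CCAAT (a Y box core, written ATTGG on the other strand), all searched on both strands, with overlapping matches joined.
H2-K1 upstream: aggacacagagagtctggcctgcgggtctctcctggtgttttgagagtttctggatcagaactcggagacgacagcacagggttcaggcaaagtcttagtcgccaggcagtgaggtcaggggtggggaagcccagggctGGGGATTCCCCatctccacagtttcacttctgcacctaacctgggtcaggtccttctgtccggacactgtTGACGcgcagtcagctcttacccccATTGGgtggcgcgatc
B2m upstream: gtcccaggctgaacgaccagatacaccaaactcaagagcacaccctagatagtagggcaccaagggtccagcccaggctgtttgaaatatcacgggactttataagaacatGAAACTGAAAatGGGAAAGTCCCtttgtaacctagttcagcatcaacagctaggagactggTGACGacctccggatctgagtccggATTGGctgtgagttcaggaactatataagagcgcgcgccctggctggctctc

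All 3 genes held a kappaB core, and all 3 held TGACG followed after 20 bases by ATTGG, an arrangement like that of the X2 and Y boxes known from class I promoters. The stretches are set out by gene because they show how close the H2-K1 and H2-D1 regions are. For H2-D1 they lie at chr17:35262913-35262942 and chr17:35262993-35263022 on the plus strand, upstream of the RefSeq start but inside the first exon of a longer GENCODE transcript. For H2-K1 they lie at chr17:34000439-34000468 and chr17:34000359-34000388 on the minus strand, and for B2m at chr2:122147550-122147579 and chr2:122147609-122147638 on the plus strand.
H2-K1 kappaB stretch: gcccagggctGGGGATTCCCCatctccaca
H2-D1 kappaB stretch: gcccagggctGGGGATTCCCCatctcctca
B2m kappaB stretch: aactgaaaatGGGAAAGTCCCtttgtaacc
H2-K1 X2 to Y stretch: TGACGcgcagtcagctcttacccccATTGG
H2-D1 X2 to Y stretch: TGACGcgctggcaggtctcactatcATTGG
B2m X2 to Y stretch: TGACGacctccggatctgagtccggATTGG

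H2-K1 and H2-D1 were identical at 29 of 30 bases of the kappaB stretch and at 23 of 30 bases from X2 to Y. The H2-D1 window and that of the inner H2-K1 start aligned over 192 columns with 172 identical bases and 1 gap, or 89.6%. The inner start lies 14 bases nearer the gene body, so the alignment ran past the H2-K1 window printed here. B2m matched H2-K1 at 12 and 13 of 30 bases. Of 32851 promoters in the same RefSeq table, searched over 250 upstream bases, 17.6% held GGGA NNNN CC, 17.8% held TGACG, 33.8% held CCAAT and 2.98% held GAAA NN GAAA. Among the members with an entry, an exact match to GAAA NN GAAA was found in the B2m window alone. Near matches were not counted. Both H2-K1 and H2-D1 held agtttcacttctgc after the kappaB core, which this exact pattern does not match. Whether it acts as such an element was not tested. TGACG and ATTGG at this spacing, on either strand, were in 30 promoters (0.0913%), and 3 members were among them. The spacing was read from these members before it was counted. Tap1 and Psmb9 start 226 bases apart on opposite strands and share 225 bases of their upstream windows, and neither window held GAAA NN GAAA or GGGA NNNN CC. Both held the wider GGG NNNNN CC, as did 45.8% of the promoters. TTC NNN GAA (a gamma-activated sequence, GAS) was found in the Psmb8 window alone among the members, and in 7.02% of the promoters. These are matches of letters, not measured binding.

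Total counts ranged from 16525869 to 23192701 per library. Levels are given as CPM, a gene's counts relative to the total of its library after TMM scaling. Zdhhc20, the targeted gene, was at 37.5, 33.9 and 42.5 CPM for knockout replicates 1 to 3, 123, 85.8 and 120 for the control replicates and 75.3, 81.2 and 90.7 for the parental replicates, lowest in the knockout clone as its label says. The 6 epithelial and ductal markers (Krt7, Krt8, Krt18, Krt19, Epcam and Cdh1) were all expressed, with a summed level of 4310 to 4440 CPM in the knockout libraries, 7000 to 9360 CPM in the control libraries and 6690 to 8160 CPM in the parental libraries. The 8 leucocyte markers summed to at most 2.88 CPM with Cd3e and Adgre1 at 0 counts in all 9 libraries, and the class II genes H2-Aa, H2-Ab1 and H2-Eb1 and their activator Ciita were at 0 counts throughout.

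Among the 6 tested members, 3 were called between the knockout and control clones, against 42.9% of all 13153 tested genes (18.7% higher and 24.2% lower in the knockout clone). H2-K1 and Tapbpl were lower in the knockout clone, B2m was higher, and H2-D1, Tapbp and Erap1 were not called. The median log2 fold change of the 6 was -0.13, against -0.02 over all tested genes. Between the knockout clone and the parental line the same 3 of 6 were called in the same directions, against 31.4% of all tested genes (13.1% higher and 18.3% lower), with a median of -0.21 against -0.0064. When the control clone was compared with its parental line, 2 of 6 were called (H2-K1 higher and B2m lower in the control clone), against 21.4% of all tested genes (10.4% higher and 11% lower), with a median of 0.18 against 0.012. With 6 members these shares are near the background and are no result about the set as a whole. Every pair of these comparisons shares 1 group of libraries, so they are not independent. Calls are from edgeR's quasi-likelihood test at a Benjamini-Hochberg adjusted p under 0.05.

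H2-K1 (ENSMUSG00000061232, chromosome 17 from 33996017 to 34000347 on GRCm38, minus strand) encodes the classical heavy chain H-2K. It was at 24.8, 23.8 and 24.7 CPM for knockout replicates 1 to 3, 83.5, 68.6 and 97.8 for the control replicates and 44.8, 44.5 and 44.4 for the parental replicates. The 3 groups did not overlap: the knockout clone was lowest, the parental line between and the control clone highest. H2-K1 was 3.41-fold lower in clone E4 (knockout) than in clone C5 (control) (log2 fold change -1.77, SE 0.12, adjusted p 1.02e-05) and 1.82-fold lower than in the parental line (-0.87, SE 0.12, adjusted p 0.000659). It was 1.87-fold higher in clone C5 (control) than in its parental line (0.90, SE 0.12, adjusted p 0.000996). The unedited clone and the edited clone thus lay on opposite sides of their line. All 3 calls held with any 1 library left out. In bulk RNA, fewer cells expressing a gene and less RNA per cell cannot be told apart. The summed epithelial markers were also lowest in the knockout libraries, and their part in the H2-K1 difference was not tested.

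H2-D1 (ENSMUSG00000073411, chromosome 17 from 35262730 to 35267499, plus strand) encodes the other classical heavy chain of this set, H-2D. It was at 57.3, 54.5 and 63.1 CPM for knockout replicates 1 to 3, 65.9, 49.7 and 74.4 for the control replicates and 50.5, 51.7 and 55.3 for the parental replicates. The 3 groups overlapped, and the control libraries spanned the values of both other groups. The knockout clone differed from the control clone by a log2 fold change of -0.12 (SE 0.13, adjusted p 0.497) and from the parental line by 0.15 (SE 0.13, adjusted p 0.428). The control clone differed from the parental line by 0.27 (SE 0.13, adjusted p 0.183). Without control replicate 2, clone E4 was lower than clone C5 (-0.26, adjusted p 0.0311) and the control clone higher than the parental line (0.41, adjusted p 0.0082), and without control replicate 3 the first difference was 0.009. Control replicate 2 was the lowest control library for 5 of the 6 tested members (83.3%), all but Erap1, and for 39.4% of all tested genes.

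**Figure D1:**
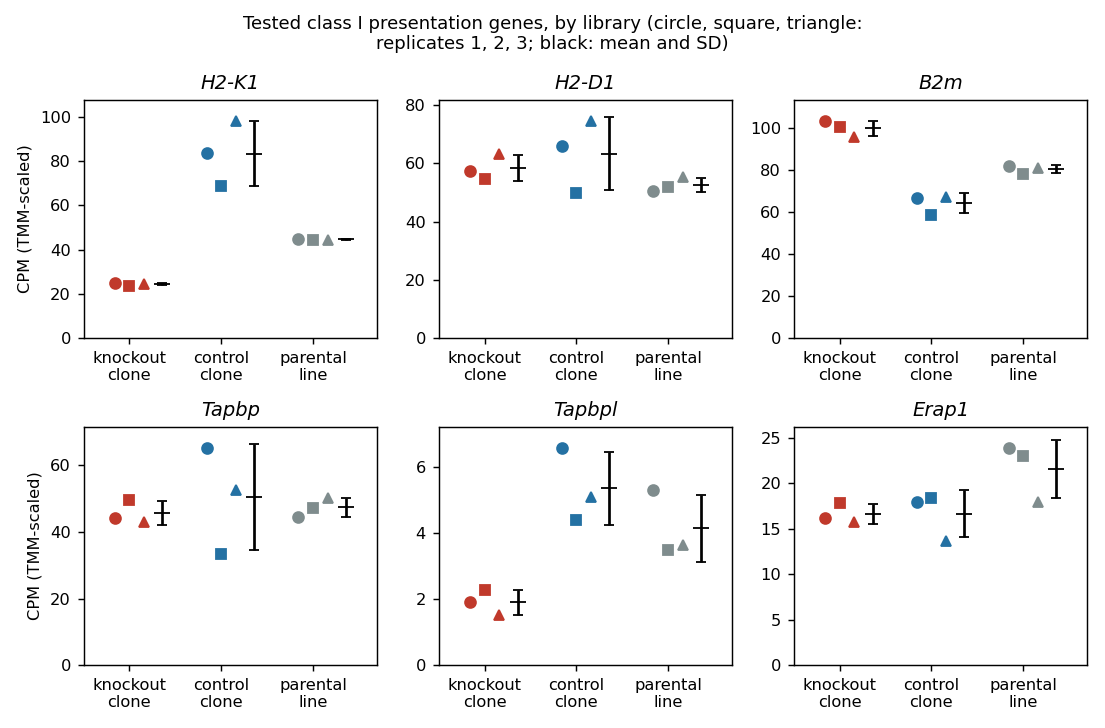
Levels of the 6 tested members in each library. Each panel plots CPM after TMM scaling on a linear axis from 0 for the knockout clone (red), control clone (blue) and parental line (grey), with circle, square and triangle for replicates 1, 2 and 3 and black bars for the mean and SD; the H2-K1 groups are separated at 23.8 to 24.8, 68.6 to 97.8 and 44.4 to 44.8 CPM, whereas the H2-D1 groups overlap.

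The CPM ratio of H2-K1 to H2-D1 within a library does not depend on depth or scaling, and serves here to compare libraries, not the levels of both genes. It was 0.433, 0.436 and 0.391 in the knockout libraries, 1.27, 1.38 and 1.31 in the control libraries and 0.887, 0.86 and 0.803 in the parental libraries. It was highest in the control clone and lowest in the knockout clone, with no overlap between the 3 groups. The log2 difference was -1.65 between the knockout and control clones, -1.02 between the knockout clone and the parental line and 0.64 between clone C5 and its line. Each had an exact two-sided permutation p of 0.1, the smallest that 3 libraries against 3 can give. With any 1 library left out the first difference stayed within -1.68 to -1.60, although the H2-D1 call by itself depended on control replicate 2.

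Of 16 other class I heavy chain genes (H2-Q, H2-T and H2-M genes, Mr1, Cd1d1 and Cd1d2), 4 were tested, and 3 of them (H2-T22, H2-T23 and H2-T24) were called lower in the edited clone than in the unedited one, against 24.2% of all tested genes. The median log2 fold change of the 4 was -1.30, against -0.02 over all tested genes. H2-T23, which encodes Qa-1, the ligand of the NKG2A receptor, was at 7.67, 8.74 and 8.29 CPM for knockout replicates 1 to 3, 35.0, 16.7 and 32.8 for the control replicates and 13.4, 12.8 and 20.7 for the parental replicates. The knockout libraries were below all others, and the control and parental libraries overlapped. H2-T23 was lower in clone E4 (knockout) than in clone C5 (control) (-1.78, SE 0.28, adjusted p 0.000991) and than in the parental line (-0.92, SE 0.28, adjusted p 0.0346). The second call was lost without any 1 knockout library (-0.87, -0.97 and -0.93 without replicates 1, 2 and 3), without parental replicate 1 (-1.02), without parental replicate 3 (-0.67) and with limma voom (-0.88, adjusted p 0.0784). Clone C5 was above its line by 0.85 (SE 0.27, adjusted p 0.0513), which passed the threshold with DESeq2 (adjusted p 0.0188), without filter (0.00974), with the replicate block (0.0435), without control replicate 2 (1.12, adjusted p 0.00212) and without parental replicate 3 (adjusted p 0.042). H2-T22, a ligand of some gamma delta T cell receptors, differed by -0.59 (SE 0.11, adjusted p 0.00283) and H2-T24 by -1.60 (SE 0.33, adjusted p 0.00371) in the same comparison with the control clone, and neither was called against the parental line (adjusted p 0.0907 and 0.0616) in the fit of all libraries, but both were in the fit of the compared groups alone (adjusted p 0.0135 and 0.0318). Without control replicate 2, both were called lower than in the line (-0.28, adjusted p 0.0225, and -0.93, adjusted p 0.0412), and H2-T24 was also called without control replicate 3 (adjusted p 0.0398). H2-T22 was called higher in clone C5 than in its line without control replicate 2 (0.41, adjusted p 0.00895). H2-M3, which presents formylated peptides, was tested and not called between the clones (adjusted p 0.0942), except without knockout replicate 3, where all 4 were called lower.

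The other 12 heavy chain genes did not pass the filter on low counts. Cd1d1, which presents lipids to natural killer T cells, had 11, 5 and 12 counts in the knockout libraries, 0 in each control library and 4, 0 and 0 in the parental libraries. With the control group set to 3 counts over its libraries, the depth-adjusted ratio of clone E4 (knockout) to clone C5 (control) was 9.87. The counting error of the 28 knockout counts and the spread between libraries are not covered. Mr1, which presents vitamin B metabolites, had 0 counts in each knockout library, 2, 0 and 0 in the control libraries and 7, 5 and 1 in the parental libraries. Each of the 6 listed H2-Q genes had 10 counts or fewer over the 9 libraries.

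**Figure D2:**
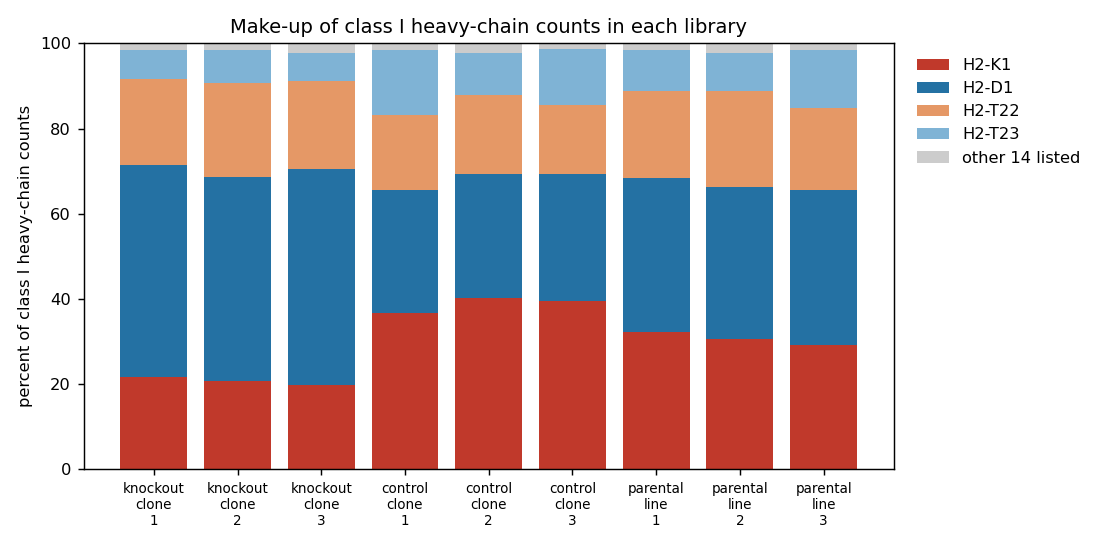
Make-up of the class I heavy chain counts in each library, as stacked percent of all counts assigned to H2-K1, H2-D1 and the 16 other listed heavy chain genes. H2-D1 holds a mean of 49.4% in the knockout clone, against 29.4% in the control clone and 36.1% in the parental line, and H2-K1 the reverse order at 20.8%, 38.8% and 30.7%.

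Heavy chain genes are near copies of each other, and RSEM divides reads that fit several of them by an estimate. In 50-base windows, 8.79% of the longest H2-K1 transcript and 14.3% of the longest H2-D1 transcript also occurred in another gene's transcripts (in H2-D1 for 6.94% of the H2-K1 windows), against 44.7% for H2-T22 and 29.8% for H2-T23, so the H2-T values are less certain than those of H2-K1 and H2-D1. Counts of all 18 heavy chain genes were therefore also summed and fitted as 1 gene. The sum was 114.8, 114 and 124.7 CPM in the knockout libraries, 227.8, 170.5 and 248 CPM in the control libraries and 139.4, 145.1 and 151.8 CPM in the parental libraries. The groups did not overlap. The summed heavy chains were lower in the knockout than in the control clone (-0.87, SE 0.13, adjusted p 0.000573) and higher in clone C5 (control) than in its parental line (0.57, SE 0.13, adjusted p 0.0123), but the difference between knockout clone and parental line was not called (-0.30, SE 0.13, adjusted p 0.0934). As a share of all heavy chain counts, not adjusted for length, H2-K1 made up 20.8% ± 0.905 (SD, n = 3) in the knockout clone, 38.8% ± 1.89 in the control clone and 30.7% ± 1.44 in the parental line.

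The genes around H2-K1 were, at the median, higher in the knockout clone. Over 119 tested genes that start within 2 Mb of H2-K1, other class I pathway genes left out, the median log2 fold change was 0.26, with 45 called higher and 17 called lower (18.7% and 24.2% of all tested genes), and 5 were at or below the value of H2-K1. Against the parental line the median of the same genes was 0.25, with 41 called higher, 8 called lower (13.1% and 18.3% of all tested genes) and 10 at or below H2-K1. The median over chromosome 17 was 0.14 and 0.22. H2-D1, which starts within this window, had 27 of 112 genes around it at or below its own value between the clones.

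**Figure D3:**
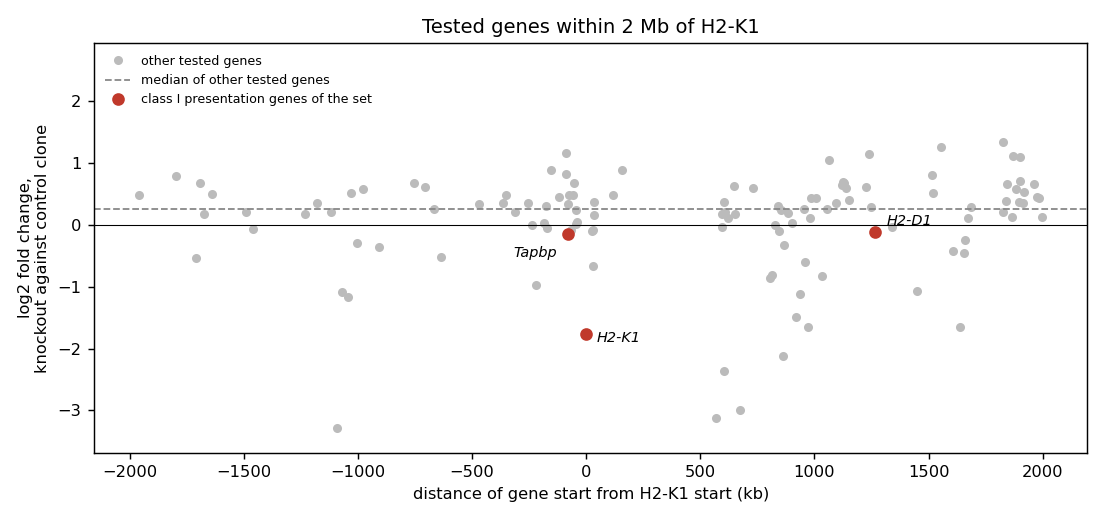
Tested genes within 2 Mb of H2-K1, plotted by the distance of their start from that of H2-K1 (x axis, kb) and their log2 fold change between the knockout and control clones (y axis). Grey points are other tested genes with their median of 0.26 as a dashed line, and red points are the members H2-K1 (-1.77), H2-D1 (-0.12) and Tapbp (-0.15).

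B2m (ENSMUSG00000060802, chromosome 2 from 122147686 to 122153083, plus strand) encodes the light chain that heavy chains pair with on their way to the surface. It was at 103, 100.3 and 95.7 CPM for knockout replicates 1 to 3, 66.7, 58.6 and 67.1 for the control replicates and 82.0, 78.1 and 80.8 for the parental replicates. The 3 groups did not overlap and stood in the opposite order to H2-K1, with the knockout clone highest and the control clone lowest. B2m was 1.55-fold higher in clone E4 (knockout) than in clone C5 (control) (log2 fold change 0.64, SE 0.08, adjusted p 0.000215). It was 1.24-fold higher in the knockout clone than in the parental line (0.31, SE 0.08, adjusted p 0.0129) and 1.25-fold lower in clone C5 (control) than in its parental line (-0.32, SE 0.08, adjusted p 0.0161). The call against the parental line was lost without knockout replicate 1 (0.29, adjusted p 0.0679), knockout replicate 2 (0.31, adjusted p 0.0509), parental replicate 2 (0.29, adjusted p 0.069) or parental replicate 3 (0.31, adjusted p 0.054), and the call between control clone and parental line without parental replicate 1 (-0.32, adjusted p 0.0673) or parental replicate 3 (-0.33, adjusted p 0.0533). The 42 tested genes within 2 Mb of B2m had medians of -0.014 and -0.038 in the comparisons of the knockout clone with the control clone and the parental line, and 39 and 37 of them were at or below B2m.

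Because light and heavy chains pair, their levels were set side by side per kilobase of exon, scaled to the same sum over all genes in each library. B2m over the sum of H2-K1 and H2-D1 was 3.91, 3.99 and 3.38 in the knockout libraries, 1.44, 1.6 and 1.26 in the control libraries and 2.74, 2.58 and 2.57 in the parental libraries. The ratio was highest in the knockout clone and lowest in the control clone, with no overlap between the groups. These lengths join all annotated exons (2938 bases for H2-K1, 2579 for H2-D1 and 860 for B2m). With the longest transcript instead (1619, 2102 and 860 bases), the ratio was 2.46 to 2.87, 0.814 to 1.03 and 1.74 to 1.85 in the knockout, control and parental libraries. The order of the groups was the same with both lengths, whereas B2m exceeded the sum of the heavy chains in control replicates 1 and 3 with the first length only. The ratio was not tested.

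On this per-length scale the order of the tested members in the knockout clone was B2m (366 ± 15.5, SD, n = 3), H2-D1 (71.4 ± 4.88), Tapbp (39.6 ± 3.38), H2-K1 (26.3 ± 0.502), Erap1 (7.22 ± 0.528) and Tapbpl (2.56 ± 0.531). In the parental line H2-K1 stood above Tapbp, at 48.0 ± 0.874 against 41.1 ± 2.22, with B2m at 295 ± 5.72 and H2-D1 at 64.4 ± 2.35. In the control clone H2-K1 (80.4 ± 13.5) and H2-D1 (69.6 ± 13.3) had overlapping ranges over the libraries, but H2-K1 was above H2-D1 within each of the 3, by ratios of 1.11, 1.21 and 1.15. Erap1 (6.50 ± 1.04) and Tapbpl (6.45 ± 1.29) did not differ beyond their spread. With the longest transcript as the length, H2-K1 was also above H2-D1 in the parental libraries (ratios of 1.04 to 1.15, against 0.705 to 0.779 with joined exons), so the order of these genes in the line depends on the length used. The same holds for Tapbp above H2-K1 in the knockout clone, where the ratio of H2-K1 to Tapbp was 0.592 to 0.713 with joined exons and 0.859 to 1.03 with the longest transcript, above 1 in replicates 1 and 3. The constitutive proteasome subunits Psmb5, Psmb6 and Psmb7 lay between 125 and 196 in the 3 group means, below B2m and above the classical heavy chains of the same group.

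Psmb8 and Psmb9, which replace Psmb5 and Psmb6 in the immunoproteasome, had 0 counts in all 9 libraries. Psmb8 (ENSMUSG00000024338) lies on chromosome 17 from 34197721 to 34201454 and Psmb9 (ENSMUSG00000096727) from 34181987 to 34187764. A count of 0 over a group allows a level of up to 0.054, 0.051 and 0.0548 CPM in the knockout, control and parental groups, counting error only. Psmb5 and Psmb6 were expressed in every library, with means of 46.9 ± 3.27 and 116 ± 3.59 CPM (SD, n = 3) in the knockout clone. RNA of the inducible subunits was therefore not detectable at this depth in any of the 3 groups, and no difference between groups could be tested.

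Psmb10, the remaining inducible subunit, was expressed at 10.3, 9.90 and 9.87 CPM for knockout replicates 1 to 3, 10.1, 11.1 and 9.50 for the control replicates and 7.23, 8.19 and 8.24 for the parental replicates. Both clones were above the parental line in every library, and overlapped with each other. It was higher than in the parental line in the knockout clone (0.35, SE 0.11, adjusted p 0.0435) and in the control clone (0.38, SE 0.11, adjusted p 0.0433), and did not pass the test between the clones (-0.03, adjusted p 0.859). The first of these calls was kept in 2 of 9 fits with 1 library left out (without control replicate 2 or 3, adjusted p 0.0242 to 0.136 over the 9), and the second in 1 of 9 (without control replicate 3, adjusted p 0.0231 to 0.164). Both were lost with total counts (adjusted p 0.0526 and 0.0694) and without filter (0.156 and 0.159), and the second in the fit of the compared groups alone (0.112). The ratio of Psmb10 to its constitutive partner Psmb7 was 0.0535, 0.047 and 0.0475 in the knockout libraries, 0.0491, 0.0496 and 0.0524 in the control libraries and 0.0359, 0.0391 and 0.0421 in the parental libraries. Both clones were above the parental line, with log2 differences of 0.34 and 0.37 to the parental line (exact two-sided permutation p 0.1 each, the smallest possible).

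Of 8 proteasome subunits and regulators outside the set, all tested, 2 were called between the clones, Psmb5 and Psme1 (a subunit of the PA28 activator), both higher in the knockout clone, against 18.7% of all tested genes called higher. Psmb5 was higher by 0.25 (SE 0.09, adjusted p 0.0467) against the control clone, a call kept in 3 of 9 fits with 1 library left out (without knockout replicate 1, control replicate 1 or control replicate 2, adjusted p 0.0317 to 0.156 over the 9), and that of Psme1 was kept in 2 of 9 (without control replicate 2 or 3). Psmb6 (-0.10, adjusted p 0.28) and Psmb7 (0.00060, adjusted p 0.998) were not called between the clones. The median of the 8 was 0.0018 between the clones, 0.095 between knockout clone and parental line and 0.047 between control clone and parental line.

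**Figure D4:**
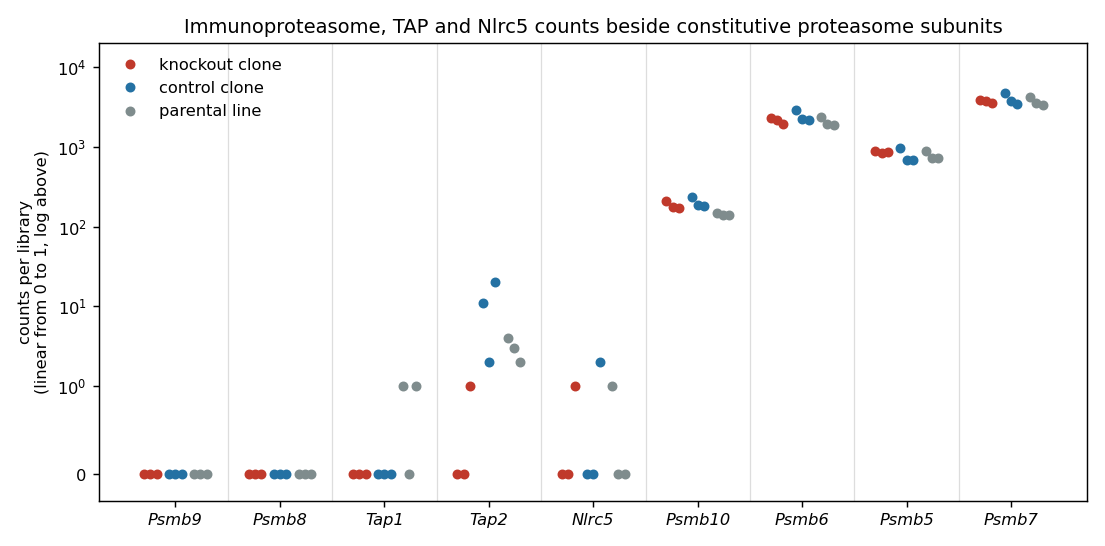
Counts per library of Psmb9, Psmb8, Tap1, Tap2 and the transactivator gene Nlrc5 beside Psmb10 and the constitutive subunits Psmb6, Psmb5 and Psmb7, on an axis that is linear from 0 to 1 and logarithmic above. Red, blue and grey points are the knockout clone, control clone and parental line; Psmb8 and Psmb9 are at 0 in all 9 libraries, Tap2 reaches 11 and 20 counts in control replicates 1 and 3, and Psmb7 has at least 3322 counts in each library.

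Tap1 and Tap2 encode the chains of the TAP peptide transporter. Tap1 (ENSMUSG00000037321, chromosome 17 from 34187553 to 34197225, plus strand) had 0 counts in each knockout and control library and 1, 0 and 1 counts in the parental libraries, so that no fold was formed. Tap2 (ENSMUSG00000024339, chromosome 17 from 34203527 to 34216321, plus strand) had 0, 0 and 1 counts in the knockout libraries, 11, 2 and 20 in the control libraries and 4, 3 and 2 in the parental libraries. Every control and parental library was above every knockout library, at counts of 20 or fewer. The control libraries held 33 Tap2 counts against 1 in the knockout libraries, a depth-adjusted ratio of 31.2 with a 95% counting interval of 5.22 to 1270, and the parental libraries held 9, a ratio of 9.14 (1.27 to 401). These intervals cover counting error only, and the 33 control counts fall mainly in replicates 1 and 3. Part of the Tap2 gene overlaps Gm15821 and Gm20496 on the other strand, with 9.9% of 50-base windows of its transcript shared with Gm15821, and the strand setting of the counting is not given, so a source in these genes was not tested.

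Tapbp (ENSMUSG00000024308, chromosome 17 from 33915899 to 33929292, plus strand) encodes tapasin, which bridges the TAP transporter and the heavy chain. It was at 44.0, 49.5 and 42.8 CPM for knockout replicates 1 to 3, 64.9, 33.4 and 52.4 for the control replicates and 44.3, 47.2 and 50.1 for the parental replicates. The control libraries held both the highest and the lowest value, and the groups overlapped. Tapbp had log2 fold changes of -0.15 (SE 0.20, adjusted p 0.576), -0.05 (SE 0.20, adjusted p 0.86) and 0.09 (SE 0.20, adjusted p 0.774) for knockout against control, knockout against parental and control against parental. Without control replicate 2 it was lower in clone E4 (knockout) than in clone C5 (control) (-0.36, adjusted p 0.0172), and without control replicate 1 the value was 0.083 (adjusted p 0.741). Tapbp shares 19% of its transcript windows with the overlapping Gm19412 on the other strand.

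Tapbpl (ENSMUSG00000038213, chromosome 6 from 125223933 to 125231860, minus strand) encodes TAPBPR, which exchanges peptides on heavy chains outside the TAP complex. It was at 1.90, 2.28 and 1.52 CPM for knockout replicates 1 to 3, 6.55, 4.40 and 5.09 for the control replicates and 5.30, 3.48 and 3.65 for the parental replicates. The knockout libraries were below all 6 others, and the control and parental libraries overlapped. Tapbpl was 2.81-fold lower in the knockout than in the control clone (log2 fold change -1.49, SE 0.25, adjusted p 0.0013) and 2.18-fold lower than in the parental line (-1.12, SE 0.25, adjusted p 0.00888), and was not called for the control clone against its line (0.37, SE 0.24, adjusted p 0.298). These values rest on 26 to 150 counts per library. Both calls held with any 1 library left out. Of 41 other tested genes within 2 Mb, 24 were called lower and 1 higher between the clones, against 24.2% and 18.7% of all tested genes, with a median of -0.51, and 8 were at or below Tapbpl. Against the parental line 10 of the 41 were called lower and 0 higher, against 18.3% and 13.1% of all tested genes. Their median was -0.23, and 5 were at or below Tapbpl. For the control clone against its line 0 were called lower and 11 higher, against 11% and 10.4% of all tested genes, with a median of 0.26. Within 5 Mb the median was -0.40 between the clones, -0.076 for the knockout clone against the line and 0.27 for the control clone against the line. A regional part in the Tapbpl difference was not tested.

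Of 5 loading and folding partners, all tested, Pdia3 (the disulfide isomerase of the loading complex) and Uggt1 (which checks glycoprotein folding) were higher in the knockout than in the control clone, against 18.7% of all tested genes, and Calr, Canx and Hspa5 were not called. The Pdia3 call was lost without knockout replicate 1 (0.20), knockout replicate 3 (0.21) or control replicate 1 (0.21), without filter (adjusted p 0.0725) and in the fit of the compared groups alone (adjusted p 0.0668). Between the knockout clone and the parental line 0 of 5 were called by edgeR's test, 0 passed an unadjusted p of 0.05, and 0 were called by DESeq2 or voom. Of all tested genes, edgeR's test called 13.1% higher and 18.3% lower in this comparison. Pdia3 was lower in clone C5 (control) than in its parental line. The medians of the 5 were 0.18, -0.024 and -0.23 in these comparisons.

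Erap1 (ENSMUSG00000021583, chromosome 13 from 74639568 to 74693201, plus strand) encodes the aminopeptidase that trims peptides in the endoplasmic reticulum. It was at 16.2, 17.9 and 15.8 CPM for knockout replicates 1 to 3, 17.9, 18.4 and 13.7 for the control replicates and 23.8, 22.9 and 17.9 for the parental replicates. Both clones lay below parental replicates 1 and 2, and parental replicate 3 was within the range of the control clone and just above the highest knockout library. Erap1 differed between the clones by a log2 fold change of -0.0039 (SE 0.15, adjusted p 0.987), and its sign turned under 7 other settings and in most fits with 1 library left out. Against the parental line it was -0.38 (SE 0.15, adjusted p 0.0806) in the knockout clone and -0.37 (SE 0.15, adjusted p 0.102) in the control clone. The first passed the threshold in the fits without control replicate 3 (-0.38, adjusted p 0.0289) and without parental replicate 3 (-0.49, adjusted p 0.0454), in that of the compared groups alone (adjusted p 0.0173) and with the replicate number as a block (-0.37, adjusted p 0.0389). Cast overlaps Erap1 on the other strand and shares 14% of its transcript windows. Of 34 other tested genes within 2 Mb, 16 were called higher and 3 lower between the clones (18.7% and 24.2% of all tested genes), with a median of 0.30. For the control clone against its line 1 was called higher and 9 lower (10.4% and 11%), with a median of -0.27. Between knockout clone and line 6 were called higher and 4 lower (13.1% and 18.3%), with a median of 0.039. A regional part in the Erap1 values was not tested.

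Of 8 other peptidases that make or destroy class I peptides, all tested, 2 were higher in the knockout than in the control clone (Lap3 and Ide) and 2 higher than in the parental line (Lap3 and Nrd1), against 18.7% and 13.1% of all tested genes. The first count became 4 without control replicate 3, and the second ranged from 0 to 3 with 1 library left out, at 0 without knockout replicate 1 or 3 or any parental library. The Nrd1 call was kept in 4 of 9 fits with 1 library left out (without knockout replicate 2 or any control library). Ide was also lower in clone C5 (control) than in its parental line. Lap3, an interferon-inducible leucine aminopeptidase, was higher by 0.37 (SE 0.07, adjusted p 0.00305) and 0.23 (SE 0.07, adjusted p 0.037). The second call was lost without any 1 knockout or parental library (0.20 to 0.25) and kept without any control library.

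Among 24 listed activators and interferon signalling genes, 20 were tested. Of these, 7 were lower and 3 higher in the knockout than in the control clone (24.2% and 18.7% of all tested genes), 5 lower and 1 higher than in the parental line (18.3% and 13.1%), and 3 lower and 3 higher in clone C5 (control) than in its parental line (11% and 10.4%). With 1 library left out, the lower and higher counts ranged from 5 to 9 and 1 to 4, from 3 to 8 and 1 to 3, and from 1 to 6 and 2 to 3. The counts of 3 higher fell to 1 without knockout replicate 1 or 3 in the first comparison. In the last, the count of 3 lower became 6 without control replicate 3 and 1 without control replicate 1, parental replicate 2 or 3, or any knockout library. The medians were -0.30, -0.20 and -0.0029. Lower in clone E4 in both of its comparisons were Tyk2, Ifngr1, Ifngr2, Irf2 and Ifnar2, of which Irf2 is an interferon regulatory factor and the others are receptor chains or a receptor kinase. Irf3 (-0.48, adjusted p 0.00387) and Socs1 (-1.74, adjusted p 0.0106) were lower than in the control clone only. The 3 higher between the clones were Rela (0.62, adjusted p 0.00233), Jak1 (0.31, adjusted p 0.02) and Jak2 (0.58, adjusted p 0.0349). They were not called against the line. The Rela call was kept in 9 of 9 fits with 1 library left out, that of Jak1 in 6 and that of Jak2 in 3. Jak2 also lost its call in the fit of the compared groups alone (adjusted p 0.0711). Both Ifnar2 calls were kept in 4 of 9 fits with 1 library left out, against the control clone without control replicate 2 or 3 or parental replicate 2 or 3, and against the line without any 1 control library or parental replicate 2.

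Tyk2, the kinase that signals from type I interferon receptors, had the order of groups seen for H2-K1. It was at 13.1, 12.2 and 12.3 CPM for knockout replicates 1 to 3, 35.4, 31.3 and 44.3 for the control replicates and 20.1, 23.7 and 24.5 for the parental replicates, without overlap. Tyk2 had log2 fold changes of -1.56 (SE 0.14, adjusted p 4.18e-05), -0.86 (SE 0.14, adjusted p 0.00168) and 0.70 (SE 0.13, adjusted p 0.00647) for knockout against control, knockout against parental and control against parental.

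Both chains of the interferon gamma receptor were lower in the knockout clone. Ifngr1 was at 73.5, 69.3 and 80.4 CPM for knockout replicates 1 to 3, 128, 103 and 122 for the control replicates and 137, 149 and 182 for the parental replicates, so that both clones lay below the line. It was lower in clone E4 (knockout) than in clone C5 (control) (-0.66, SE 0.12, adjusted p 0.00245) and than in the parental line (-1.07, SE 0.13, adjusted p 0.000317). It was also lower in clone C5 (control) than in its parental line (-0.41, SE 0.12, adjusted p 0.0443), a call kept in 2 of 9 fits with 1 library left out (without control replicate 3 or parental replicate 1, adjusted p 0.0397 to 0.147 over the 9). Ifngr2 was lower in the knockout clone by -0.70 (SE 0.20, adjusted p 0.0191) and -0.86 (SE 0.20, adjusted p 0.011). The first was not called without knockout replicate 1 (-0.67), knockout replicate 3 (-0.65) or control replicate 1 (-0.58), and the second not without parental replicate 3 (-0.72).

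Nlrc5, the transactivator of class I genes, was near the limit of detection, and Irf1 did not pass the test. Nlrc5 had 0, 0 and 1 counts in the knockout libraries, 0, 0 and 2 in the control libraries and 1, 0 and 0 in the parental libraries. Irf7 had 3, 0 and 1 counts in the knockout libraries, 16, 8 and 17 in the control libraries and 8, 5 and 4 in the parental libraries, below the filter but higher in every control and parental library than in every knockout library. Irf1, the interferon gamma effector that binds class I promoters, had log2 fold changes of -0.14 (adjusted p 0.437), -0.02 (adjusted p 0.92) and 0.12 (adjusted p 0.578) for knockout against control, knockout against parental and control against parental. Relb, an NF-kappaB subunit, was higher than in the parental line in the knockout clone (0.84, SE 0.11, adjusted p 0.00055) and in the control clone (0.56, SE 0.11, adjusted p 0.0071). Unlike Rela, it was not called between the clones (0.28, SE 0.11, adjusted p 0.0638), which held in 8 of 9 fits with 1 library left out. With total counts it was called (0.31, adjusted p 0.0468).

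Of 6 genes that act in removal of class I molecules or their fragments, all tested, 3 were lower in the knockout than in the control clone (March9, March4 and H13), against 24.2% of all tested genes. Between knockout clone and parental line, 0 were called by edgeR's test, by DESeq2 or by voom, with 0 at an unadjusted p of 0.05, and 1 was called lower without control replicate 2. In edgeR's test 13.1% of all tested genes were called higher and 18.3% lower between knockout clone and line. March9 was higher in clone C5 (control) than in its parental line, a call kept in 1 of 9 fits with 1 library left out (without control replicate 2), and the H13 call was lost without knockout replicate 2 (-0.25). March9 and March4 encode ubiquitin ligases that take class I molecules from the surface, and H13 encodes signal peptide peptidase, which releases the leader peptides that H2-T23 presents. The medians of the 6 were -0.23, -0.14 and 0.18.

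**Figure D5:**
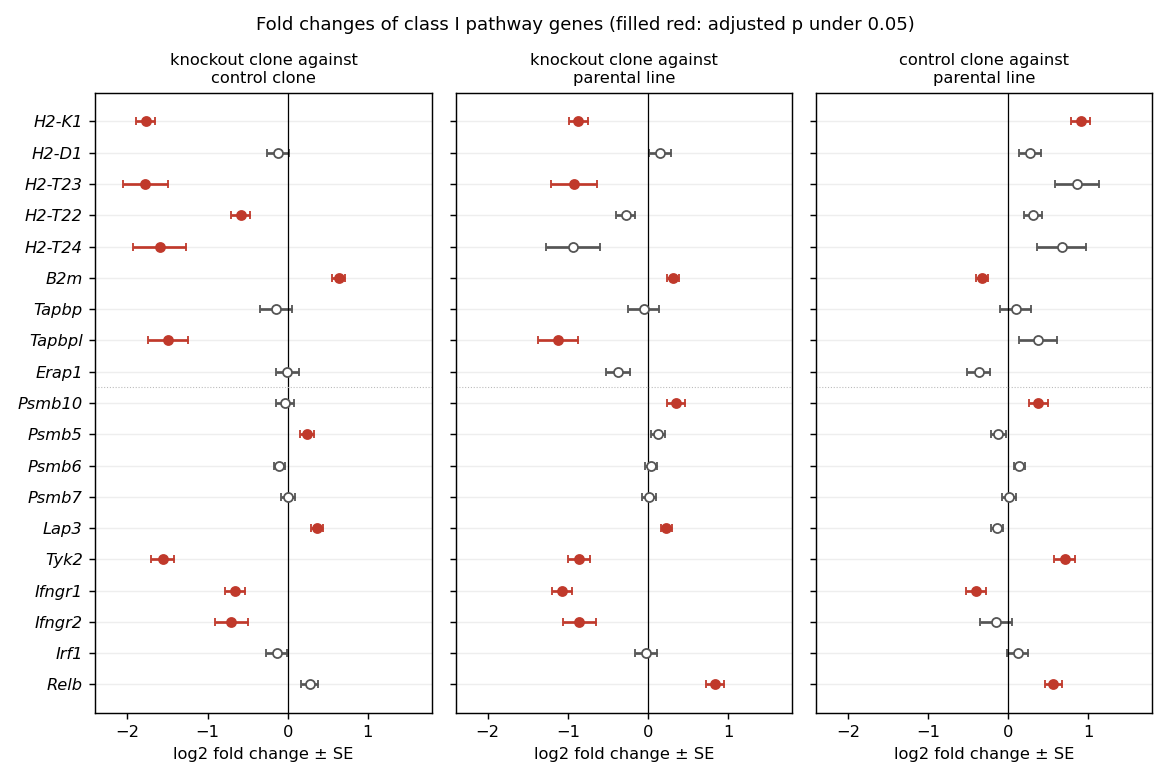
Log2 fold changes with SE of the tested members (above the dotted line, with H2-T22, H2-T23 and H2-T24) and of other named pathway genes (below it) in the 3 comparisons. Filled red points passed an adjusted p of 0.05; H2-K1, H2-T23, Tapbpl, Tyk2, Ifngr1 and Ifngr2 are to the left in both knockout comparisons, and B2m and Lap3 to the right.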

How the data were processed

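The authors deposited estimated counts from RSEM for each gene and library, all of them whole numbers. The submitters' processing notes name RSEM 1.3.0, STAR 2.5.2, DESeq2 1.10.1 and GRCm38. The annotation release and strand setting are not given in the sources used here, and the labels name no batch. Per the labels' protocols, total RNA came from cultured cells and was prepared with KAPA mRNA HyperPrep. RSEM splits reads shared by near copies, and without strand, overlapping genes cannot be told apart. Symbols, positions and exon lengths are from the GENCODE M21 chromosome annotation on GRCm38, which held 54723 of 54838 identifiers.

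Counts were tested with edgeR 4.0.16 (quasi-likelihood, R 4.3.3) after filterByExpr (minimum count 10, minimum total 15) and TMM scaling, with all 9 libraries in 1 fit by group. Tested genes held at least 99.88% of counts. Group floors are 3 counts. Alternatives were DESeq2 1.42.0, voom of limma 3.58.1, other scalings and filters, a replicate block, fits of the compared groups alone, summed heavy chains and each library left out. The test was tried on simulated counts. No library pair agreed within sampling noise (chi-square per gene 4.92 to 15.3 within parental, 7.29 to 17.9 within knockout and 38.2 to 90.9 within control libraries, which stood furthest apart).

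Named are all members, list genes called alike in both knockout or both clone comparisons (at most 3 per list and pattern), Psmb5, Psmb6, Psmb7, Psmb10, Nlrc5 and Irf1, with 1 gene of this rule not reported here. Others were named after their values were seen. Members and lists were chosen with earlier results of these data known.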

Additional observations from a re-analysis of the deposited data

How the results depend on the processing

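Members: the H2-K1, Tapbpl and B2m calls between knockout and control clone, and the H2-K1 and Tapbpl calls against the parental line, held under every scaling, filter, test and left-out library that gave a value; Tapbpl gave none at a mean of at least 5 CPM, and H2-K1 read as summed heavy chains lost the call against the parental line. The count of members called ranged with 1 library left out from 3 to 5 (knockout against control), from 2 to 4 (knockout against parental) and from 1 to 3 (control against parental), and was 1 for the latter in the fit of the compared groups alone, where B2m missed the threshold (adjusted p 0.0629). Over all genes, the knockout against parental count of 4131 became 6840 in the fit of the compared groups alone and 2515 to 5693 with 1 library left out; control against parental, 2814, became 1525 and 1472 to 4102; knockout against control, 5643, became 4301 to 7204. Total counts in place of TMM moved the median of all genes by at most 0.048 and the share of lower calls between control clone and parental line from 51.31% to 61.2%.

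Values close to 0 turned in sign. Erap1 between the clones was 0.0038 with DESeq2 size factors, 0.0298 with total counts, 0.007 without filter, 0.0185 in the fit of the compared groups alone, 0.0058 with the replicate block, 0.0037 with DESeq2, 0.006 with voom, and -0.13 to 0.073 with 1 library left out. Psmb10 between the clones was 0.0052 with total counts and -0.077 to 0.034 with 1 library left out. Psmb7 was -0.011 (clones, mean of at least 5 CPM), -0.0033 and -0.0025 (knockout against parental, total counts and mean of at least 5 CPM) and -0.037 (control against parental, total counts), and with 1 library left out -0.076 to 0.075, -0.013 to 0.0503 and -0.062 to 0.088. With 1 library left out the ranges were -0.26 to 0.009 for H2-D1 and -0.36 to 0.083 for Tapbp between the clones, -0.14 to 0.31 for Tapbp and -0.28 to 0.0596 for Ifngr2 in control against parental, -0.10 to 0.066 for Irf1 in knockout against parental, and -0.091 to 0.003 for the log2 ratio of Psmb10 to Psmb7 between the clones. The causes were not tested. Within 5 Mb in place of 2 Mb, medians in the 2 comparisons of the knockout clone were 0.21 and 0.23 around H2-K1, 0.056 and 0.016 around B2m and -0.40 and -0.076 around Tapbpl.

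Replicate numbers did not pair the libraries: same-number deviations correlated at -0.134 to 0.212 and 8 of 18 cases correlated best with their own number. With the replicate block, Erap1 against the parental line was called (-0.37, adjusted p 0.0389), and no other member's call changed. Among other pathway genes the block ended the calls of Psmb5 (adjusted p 0.0796) and Psme1 (0.0556) between the clones, of Psmb10 (0.071) and Lap3 (0.0524) against the parental line, and of Psmb10 (0.0738), Irf3 (0.0613) and March9 (0.0542) between control clone and line, where H2-T23 (0.84, adjusted p 0.0435) and Zdhhc20 (0.40, adjusted p 0.0475) gained one. The Irf3 call (0.31, adjusted p 0.0497) was kept in 0 of 9 fits with 1 library left out. It was also lost with DESeq2 size factors (0.0515), with total counts (0.09), without filter (0.166) and in the fit of the compared groups alone (0.0874). Without filter, calls were lost by Psmb5 (0.116) and Ifnar2 (0.0678) between the clones and by Lap3 (0.116), Nrd1 (0.057) and Ifnar2 (0.0968) against the parental line; in the fit of the compared groups alone by Psmb5 (0.0907), Psme1 (0.0816) and Ifnar2 (0.0656) between the clones and by Ifngr1 (0.103) and March9 (0.0952) between control clone and line; at a mean of at least 5 CPM by Psme1 (0.0642) and Ifngr1 (0.0524), with voom by Psmb5 (0.0502) and March9 (0.0507), and with total counts by March9 (0.0543), in the same comparisons.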
